A study of Mus musculus with 6 samples.

Results

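Transcripts of the BCL2 family, the proteins that set whether a cell keeps its mitochondria intact or dies, were described in activated mouse CD8 T cells. The members were 10 genes chosen by name, namely Bcl2, Bcl2l1, Mcl1, Bcl2a1b, Bcl2a1d, Bcl2l11, Bax, Bak1, Bbc3 and Pmaip1, out of 22095 gene rows in the deposited table. All 10 had a row, and since Bcl2a1b and Bcl2a1d are near copies their values were added, which gave 9 signals. The 3 ponatinib libraries came from wild-type C57BL/6 splenic naive CD8 T cells that were activated for 48 h with antibodies to CD3 and CD28 in medium with IL-2 and 10 nM ponatinib, a drug that blocks BCR-ABL along with a wide range of further kinases. The other 3 libraries came from the same kind of cells, activated in the same way with the solvent DMSO. Nothing in the sources used here gives the age or sex of the mice, or says that replicates were separate mice or cultures. All p-values therefore rest on the spread between 3 libraries a group, which may be technical.

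Pro-survival members of the family (BCL2, BCL-XL from Bcl2l1, MCL1 and A1 from the Bcl2a1 genes) hold the effectors BAX and BAK in check on the outer mitochondrial membrane. BH3-only proteins such as BIM (from Bcl2l11), PUMA (from Bbc3) and NOXA (from Pmaip1) bind the pro-survival members, and when they outweigh them BAX and BAK open the membrane, cytochrome c leaves and caspases are activated. In T cells BCL2 is known as the guard of naive and memory cells that cytokines such as IL-7 sustain, A1 and BCL-XL are induced by the antigen receptor and its co-receptors, MCL1 is needed at every stage, and BIM is the main killer when a response contracts.

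Levels are in TPM, transcript abundances relative to the library total, which are corrected for transcript length and can be set side by side between genes. Between 6182 and 6620 gene rows per library reached 10 TPM. DMSO replicate 3 stood apart from the other DMSO libraries on the second principal component, which held 17.3% of the variance, and mitochondrially encoded rows held 7.16% to 8.19% of TPM with ponatinib, against 4.78% in DMSO replicate 3 and 9.76% and 10.7% in the other DMSO libraries. Cd8a, the defining marker of these cells, lay at 331 to 371 TPM with ponatinib and at 227 to 245 TPM with DMSO, while Cd4 lay at 4.23 to 5.32 TPM with ponatinib and at 0.713 to 2.84 TPM with DMSO. Of 7 CD8 T cell markers 3 were higher and 0 lower, and Cd3d, Cd3g, Trac and Thy1 were not called. The 7 summed to 2610 to 2820 TPM with ponatinib and 2241 to 2421 TPM with DMSO. Of 4 CD4 T cell markers 3 were higher and 1 lower with ponatinib, their sum was 16.4 to 19.7 TPM with ponatinib and 5.21 to 9.53 TPM with DMSO, and 0 of them were at 0 throughout either group. The 8 B cell markers summed to 271 to 297 TPM with ponatinib and 225 to 254 TPM with DMSO, with 3 of 5 tested higher and 0 at 0 throughout. Of 8 myeloid markers S100a8 and S100a9 were at 0 in all DMSO libraries, and the list summed to 88.5 to 92.2 TPM with ponatinib and 109 to 113 TPM with DMSO. Nearly all of that sum was Cst3, at 86.4 to 87.7 TPM with ponatinib and 109 to 113 TPM with DMSO, the only myeloid marker to reach the filter. The other 7 had higher means with ponatinib, among them Lyz2 at 1.13 to 2.81 TPM with ponatinib and 0.0422 to 0.260 TPM with DMSO, and the groups of Lyz2, Cd14 and S100a8 did not overlap. The 5 NK cell markers, mostly Eomes, which CD8 T cells also express, summed to 33.9 to 42.8 TPM with ponatinib and 18.2 to 30.5 TPM with DMSO, with Ncr1 at 0 in all DMSO libraries. The 6 erythroid and platelet markers summed to 4.07 to 8.37 TPM with ponatinib and 0.742 to 1.89 TPM with DMSO, with 0 at 0 throughout. Over all rows tested 23.9% were called higher and 9.54% lower, and in 34.5% the groups were apart with ponatinib higher. The marker counts are to be read against these shares. Lyz2, Cd14 and S100a8 were under the filter and so were not among those rows. The part of these cells in the values below was not tested, and in such bulk samples fewer cells of a type and less RNA per cell cannot be told apart.

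The A1 genes are shown first as sequence, because their likeness decides what their values can say. Mouse chromosome 9 carries several A1 copies. In the annotation the transcripts of Bcl2a1b (817 bases) and Bcl2a1d (863 bases) were identical at 810 of 817 aligned bases, and 72.4% of the 31-base words of the Bcl2a1b transcript also occur in that of Bcl2a1d. No source used here says how reads that match both were shared out, so the split between the copies is uncertain. Stretches upstream of the annotated genes are as close (RefSeq, GRCm38.p6, each read 5′ to 3′ along its gene and limited to bases outside the annotated gene in every copy shown or compared). The stretch of Bcl2a1b is at chr9:89199023-89199164 on the plus strand and that of Bcl2a1d at chr9:88731915-88732050 on the minus strand, and a capital in Bcl2a1d marks the base that differs from Bcl2a1b.
Bcl2a1b: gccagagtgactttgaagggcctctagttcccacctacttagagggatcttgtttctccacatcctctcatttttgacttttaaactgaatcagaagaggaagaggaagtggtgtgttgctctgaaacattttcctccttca
Bcl2a1d: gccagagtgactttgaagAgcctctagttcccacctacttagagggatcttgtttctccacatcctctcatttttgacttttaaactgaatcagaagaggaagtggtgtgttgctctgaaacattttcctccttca
Bcl2a1d had 1 mismatch to Bcl2a1b and lacked 6 of its bases. The matching stretch of Bcl2a1a, a further copy that was no member, had 0 mismatches over 142 bases. Bcl2a1a was listed at 0 TPM in 5 of the 6 libraries and at 0.1003 TPM in ponatinib replicate 2, while Bcl2a1b had 161 TPM and Bcl2a1d 60.3 TPM in that library. Of the 31-base words of the Bcl2a1a transcript, 56.5% also occur in that of Bcl2a1b and 78.1% in that of Bcl2a1d. The low values of Bcl2a1a are thus subject to the same uncertainty about the split between copies.

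Upstream windows of 250 bases were in RefSeq for 9 of the 10 members, 14 windows in all since some genes have several annotated starts, and 3 motifs were searched in them on both strands. The forkhead letters TGTTTAC, which FOXO factors are known to bind, were found in 2 of the 14 windows, those of the BH3-only genes Bcl2l11 and Bbc3, and in 3.17% of all 32851 windows. The NF-kappaB consensus motif was found in 2 of the 14, at Bcl2l1 and at another start of Bbc3, and in 3.90% of all. That count depends on how the motif is written: a different form, which was searched first, was found in 4 of the 14 and in 4.11% of all. A STAT motif, TTCNNNGAA, was in 0 of the 14 and in 7.02% of all. No match says only that these letters are not in the window. The 2 windows with forkhead letters are shown, since these genes are known FOXO targets: those of Bcl2l11 (chr2:128125788-128126037, plus strand), whose transcript rose, and of Bbc3 (chr7:16310011-16310260, plus strand, before an internal start and so within the annotated gene at 16308393 to 16318205), whose transcript did not pass the test. Capitals mark the forkhead letters, on the opposite strand in Bcl2l11.
Bcl2l11: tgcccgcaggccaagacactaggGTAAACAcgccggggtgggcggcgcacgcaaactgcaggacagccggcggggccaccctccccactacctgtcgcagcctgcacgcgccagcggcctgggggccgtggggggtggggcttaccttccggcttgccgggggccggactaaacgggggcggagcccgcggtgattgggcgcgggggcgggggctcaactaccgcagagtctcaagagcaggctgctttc
Bbc3: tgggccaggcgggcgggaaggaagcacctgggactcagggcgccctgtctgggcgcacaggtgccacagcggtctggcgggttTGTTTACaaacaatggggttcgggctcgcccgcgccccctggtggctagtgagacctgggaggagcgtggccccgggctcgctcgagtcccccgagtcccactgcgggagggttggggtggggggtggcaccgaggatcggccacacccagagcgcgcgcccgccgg
A match is a description of letters and does not show a bound site.

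The comparison asked whether activation with ponatinib rather than its solvent changed the balance of survival and death transcripts. With ponatinib, 4 signals rose, the pro-survival genes Mcl1, Bcl2l1 and Bcl2a1b plus Bcl2a1d and the BH3-only gene Bcl2l11, and 1 fell, the pro-survival gene Bcl2. Bax, Bak1, Bbc3 and Pmaip1 did not pass the test. All changes were under 2-fold: the ratio of mean TPM ranged from 0.635 for Bcl2 to 1.44 for Bcl2l11. All 9 signals passed the filter on low values, a mean of at least 1 TPM. Calls are from limma on log2(TPM + 1) over 10038 gene rows, at a Benjamini-Hochberg adjusted p under 0.05. In that comparison 23.9% of all rows tested were called higher and 9.54% lower, so that 4 of 9 higher and 1 of 9 lower are to be read against those shares. The median log2 fold change of the 9 signals was 0.10, and that of all rows 0.09. After scaling by medians of ratios, which centres all rows near 0, the called rows were 1476 higher and 1571 lower in place of 2397 and 958, while the members stayed at 4 higher and 1 lower.

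The levels of the members spanned a wide range. With ponatinib the order from high to low was Bcl2a1b plus Bcl2a1d (220 TPM), Bax (216 TPM), Mcl1 (166 TPM), Bcl2l1 (122 TPM), Bak1 (90.2 TPM), Bcl2l11 (32.1 TPM), Bcl2 (30.1 TPM), Bbc3 (11.1 TPM) and Pmaip1 (4.17 TPM). With DMSO it was Bax (202 TPM), Bcl2a1b plus Bcl2a1d (162 TPM), Mcl1 (122 TPM), Bcl2l1 (97.6 TPM), Bak1 (84.1 TPM), Bcl2 (47.4 TPM), Bcl2l11 (22.3 TPM), Bbc3 (11.1 TPM) and Pmaip1 (5.30 TPM). In DMSO libraries no neighbours in this order overlapped. In ponatinib libraries the summed A1 genes overlapped with Bax, and Bcl2l11 overlapped with Bcl2, so that their order there was not separated from the spread between libraries.

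**Figure D1:**
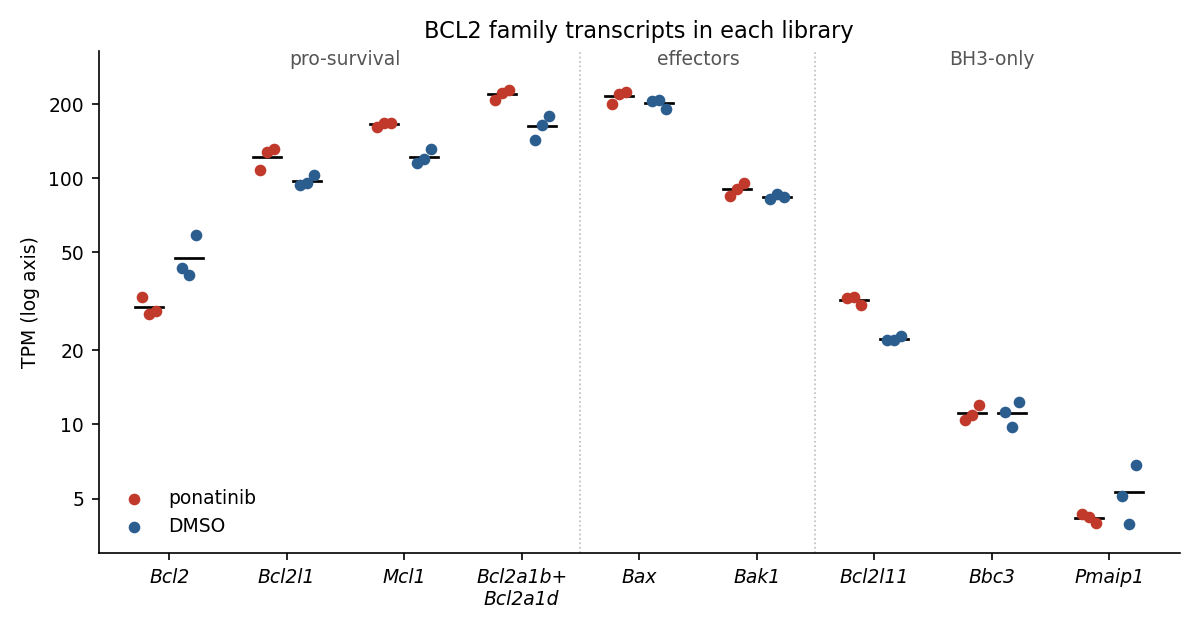
TPM of the 9 signals in each library, on a log axis; dots are the 3 ponatinib and 3 DMSO libraries, black lines are group means, and dotted lines part the pro-survival, effector and BH3-only members. The groups do not overlap for Bcl2, Bcl2l1, Mcl1, the summed A1 genes and Bcl2l11, and overlap for Bax, Bak1, Bbc3 and Pmaip1.

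Among the pro-survival genes, Bcl2 moved against the others. It had 33.0, 28.2 and 29.0 TPM in the ponatinib libraries, against 43.1, 40.3 and 58.7 TPM in the DMSO libraries. The groups did not overlap, and DMSO replicate 3 was the highest of all. In 14.9% of all rows tested the groups were likewise apart with ponatinib lower. The mean was 30.1 ± 2.54 TPM with ponatinib and 47.4 ± 9.93 TPM with DMSO (SD, n = 3 each). On the log2 scale Bcl2 fell by 0.62 (SE 0.14, limma adjusted p = 0.0111). Without DMSO replicate 3 the log2 fold change was -0.46 and the call held (adjusted p = 0.00242, with 0.00242 to 0.0477 over all alternatives). Bcl2 (ENSMUSG00000057329) is a long gene that spans bases 106538178 to 106714274 of chromosome 1 in GRCm38 and is read from the minus strand.

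Mcl1 encodes a short-lived protein whose loss alone kills lymphocytes. Its transcript stood at 161, 169 and 168 TPM in ponatinib libraries, against 115, 120 and 132 TPM in DMSO libraries. Every ponatinib library lay above every DMSO library, as was true of 34.5% of all rows tested. The log2 fold change was 0.44 (SE 0.06, limma adjusted p = 0.00167). With DMSO replicate 3 left out it was 0.49. Mcl1 (ENSMUSG00000038612) is a compact gene that spans bases 95658788 to 95663176 of chromosome 3 on the plus strand.

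The summed A1 genes reached 209, 221 and 229 TPM in ponatinib libraries, against 143, 165 and 179 TPM in DMSO libraries. Here too the groups were apart. A1 was thus the most abundant pro-survival signal in every library, and its log2 fold change was 0.44 (SE 0.08, limma adjusted p = 0.00635) and 0.51 with DMSO replicate 3 left out. As separate rows, Bcl2a1b averaged 159 ± 4.86 TPM with ponatinib and 120.2 ± 11.5 TPM with DMSO (SD, n = 3 each), and Bcl2a1d averaged 60.3 ± 5.73 TPM with ponatinib and 42.3 ± 6.60 TPM with DMSO. Both copies were called higher, Bcl2a1b by 0.41 and Bcl2a1d by 0.51 on the log2 scale (limma adjusted p = 0.00505 and 0.0136), and the ratio of Bcl2a1b to Bcl2a1d overlapped between the groups, at 2.47 to 2.82 with ponatinib and 2.68 to 3.03 with DMSO. Since the copies share most of their sequence, these are not independent observations. Bcl2a1b (ENSMUSG00000089929) lies at 89199209 to 89207827 on the plus strand of chromosome 9, and Bcl2a1d (ENSMUSG00000099974) at 88723285 to 88731914 on the minus strand.

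Bcl2l1, which encodes BCL-XL, had the smallest of the called changes. It had 108, 128 and 131 TPM in ponatinib libraries, against 93.6, 95.5 and 104 TPM in DMSO libraries. Ponatinib replicate 1 lay close to DMSO replicate 3, although the groups did not overlap. The log2 fold change was 0.32 (SE 0.08, limma adjusted p = 0.0198). This call was lost with fewer libraries. Leaving out ponatinib replicate 2 or 3 gave a limma adjusted p of 0.0776 or 0.0780, and leaving out DMSO replicate 1 or 2 gave 0.0686 or 0.0543. The log2 fold changes were then 0.27 to 0.31. Calls higher over all rows also fell, from 2397 to between 1346 and 1768, without any 1 library other than DMSO replicate 3. Over all alternatives the adjusted p of Bcl2l1 ran from 0.00876 to 0.0780. Bcl2l1 (ENSMUSG00000007659) spans bases 152780668 to 152831728 of chromosome 2 on the minus strand.

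**Figure D2:**
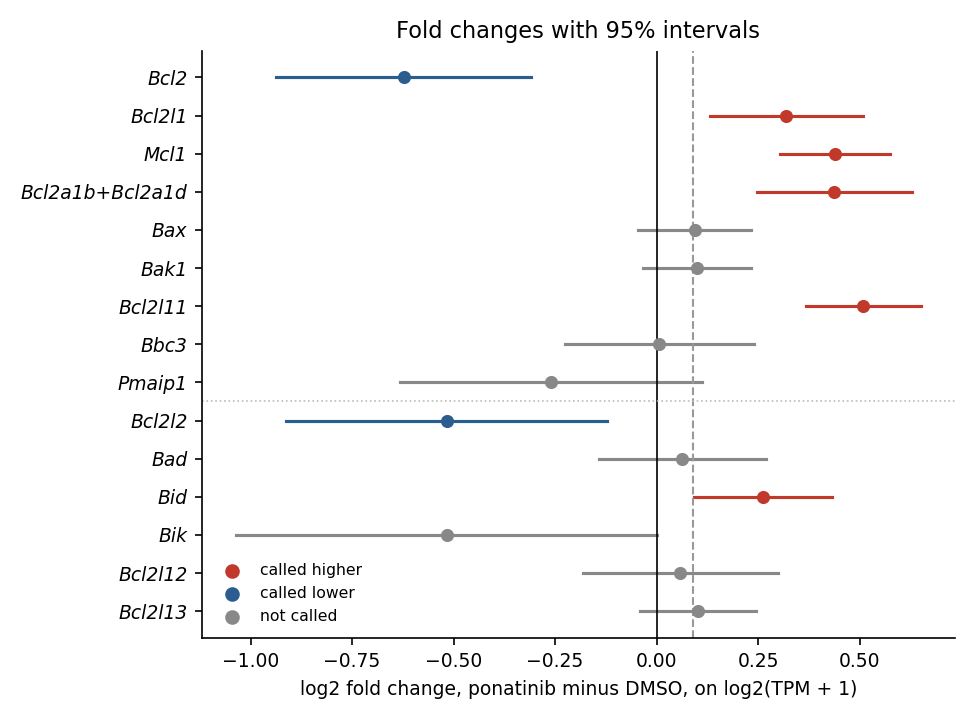
Log2 fold change (ponatinib minus DMSO, on log2(TPM + 1)) of the 9 signals, above the dotted line, and of 6 further family genes that passed the filter, below it; bars are 95% intervals from limma, the dashed line is the median of all rows tested, 0.09. Bcl2 and Bcl2l2 lie left of 0, and Bcl2l1, Mcl1, the summed A1 genes, Bcl2l11 and Bid right of it, with intervals that do not reach 0.

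The effectors BAX and BAK, either of which can open the mitochondrial membrane, did not pass the test. Bax had 201, 221 and 225 TPM in ponatinib libraries, against 206, 208 and 191 TPM in DMSO libraries. Its groups overlapped, and its log2 fold change was 0.09 with a 95% interval from -0.04 to 0.23 (limma adjusted p = 0.262). Bak1 had 84.6, 90.5 and 95.6 TPM in ponatinib libraries, against 82.4, 86.2 and 83.6 TPM in DMSO libraries. The groups overlapped again, with a log2 fold change of 0.10 and an interval from -0.03 to 0.23 (limma adjusted p = 0.221). Both values lay close to the shift of the median row, 0.09, and after scaling by medians of ratios Bax and Bak1 stood at -0.0016 and 0.0039. Bax to Bak1 was a steady ratio within libraries, 2.36 to 2.44 with ponatinib and 2.28 to 2.50 with DMSO. With all libraries the intervals ended at 0.23 on the log2 scale in both genes. Without ponatinib replicate 1 the log2 fold changes were 0.14 for Bax (SE 0.06) and 0.14 for Bak1 (SE 0.05). That upper end therefore depends on the libraries used.

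Of the BH3-only genes, Bcl2l11, which encodes BIM, had the largest rise among the 9 signals. Its levels were 32.8, 33.1 and 30.5 TPM in ponatinib libraries, against 22.00, 22.02 and 22.8 TPM in DMSO libraries. The replicates of each group were close together and the groups far apart. With means of 32.1 ± 1.42 TPM with ponatinib and 22.3 ± 0.443 TPM with DMSO (SD, n = 3 each), the log2 fold change was 0.51 (SE 0.06, limma adjusted p = 0.00112). DMSO replicate 3, in which Bcl2 was highest, was no exception for Bcl2l11, and without that library the log2 fold change of Bcl2l11 was 0.52. Bcl2l11 (ENSMUSG00000027381) spans bases 128126038 to 128162547 of chromosome 2 on the plus strand and starts at the base after its window printed above.

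Bbc3, which encodes PUMA, a target of p53 and of FOXO3, had 10.4, 10.9 and 12.01 TPM in ponatinib libraries, against 11.2, 9.75 and 12.3 TPM in DMSO libraries. The groups overlapped fully. The log2 fold change was 0.01, with an interval from -0.23 to 0.24 (limma adjusted p = 0.968). Pmaip1, which encodes NOXA, the BH3-only partner of MCL1 and A1, was the least abundant member, at 4.32, 4.23 and 3.97 TPM in ponatinib libraries, against 5.10, 3.96 and 6.85 TPM in DMSO libraries. DMSO replicate 2 lay below all ponatinib libraries and DMSO replicate 3 above them. Its log2 fold change was -0.26, with an interval from -0.63 to 0.11 (limma adjusted p = 0.247), and -0.09 without DMSO replicate 3. The forkhead letters shown above were in a window of Bcl2l11, which rose, and of Bbc3, which did not pass the test. Whether these letters bear on either transcript was not tested.

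Ratios within a library do not depend on the scaling between libraries, and they are given as values without a test, since the members were chosen with results of these data known. The 4 pro-survival signals together came to 511, 546 and 558 TPM in ponatinib libraries, against 396, 421 and 473 TPM in DMSO libraries. Within that sum Bcl2 held 5.17% to 6.46% with ponatinib and 9.58% to 12.4% with DMSO. The share of Bcl2l1 overlapped between groups, at 21.2% to 23.5% with ponatinib and 21.9% to 23.7% with DMSO. Mcl1 held 30.2% to 31.5% with ponatinib and 27.8% to 29.2% with DMSO, and the A1 genes held 40.5% to 41.1% with ponatinib and 36.3% to 39.1% with DMSO. Bcl2 was the smallest part of the sum in every library.

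**Figure D3:**
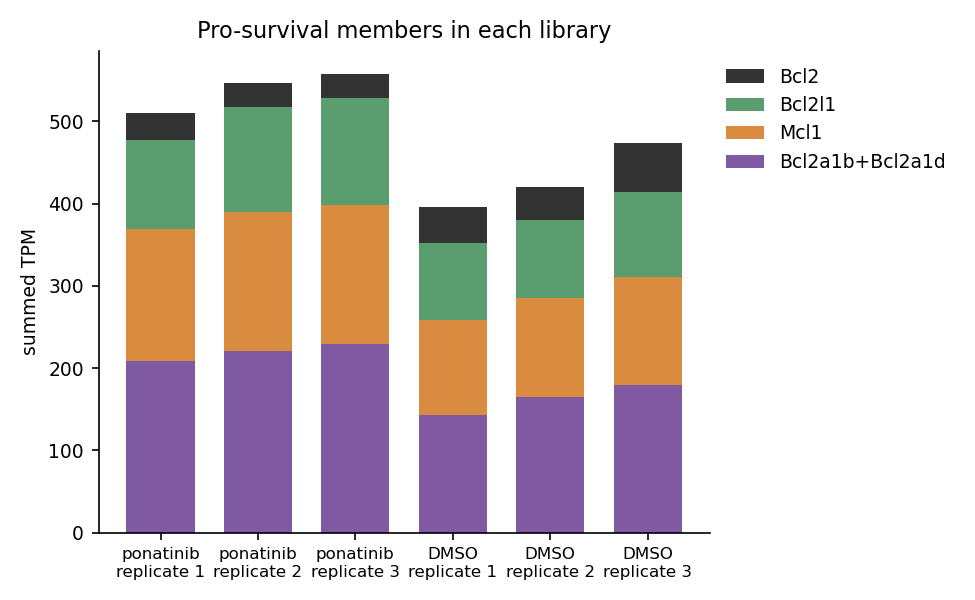
Summed TPM of the pro-survival members in each library, stacked by gene, ponatinib libraries at left and DMSO libraries at right. The total is 511 to 558 TPM with ponatinib and 396 to 473 TPM with DMSO, and the topmost part, Bcl2, is smaller in each ponatinib library than in each DMSO library.

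The transcript of BIM gained on that of Bcl2 and kept pace with that of Mcl1. Bcl2l11 to Bcl2 was 0.995, 1.17 and 1.05 with ponatinib, against 0.511, 0.546 and 0.388 with DMSO. In the ponatinib libraries the pair was close to parity, and the groups were well apart. In contrast Bcl2l11 to Mcl1 was 0.204, 0.196 and 0.181 with ponatinib, against 0.191, 0.183 and 0.173 with DMSO, and the groups overlapped. Bax to Bcl2 was 6.10, 7.82 and 7.77 with ponatinib, against 4.79, 5.17 and 3.25 with DMSO. Ratios to Bcl2 share its fall and are not independent observations, and Bax itself was not called. Summed over the members of a class the picture was another. These sums leave out family genes that were no members, such as Bcl2l2, Bid and Bad, whose values are given below. The effector sum divided by the pro-survival sum was 0.560, 0.570 and 0.575 with ponatinib, against 0.730, 0.701 and 0.580 with DMSO, where DMSO replicate 3 came close to the ponatinib libraries without reaching them. The BH3-only sum divided by the pro-survival sum was 0.0931, 0.0883 and 0.0833 with ponatinib, against 0.0969, 0.0849 and 0.0886 with DMSO, and overlapped.

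**Figure D4:**
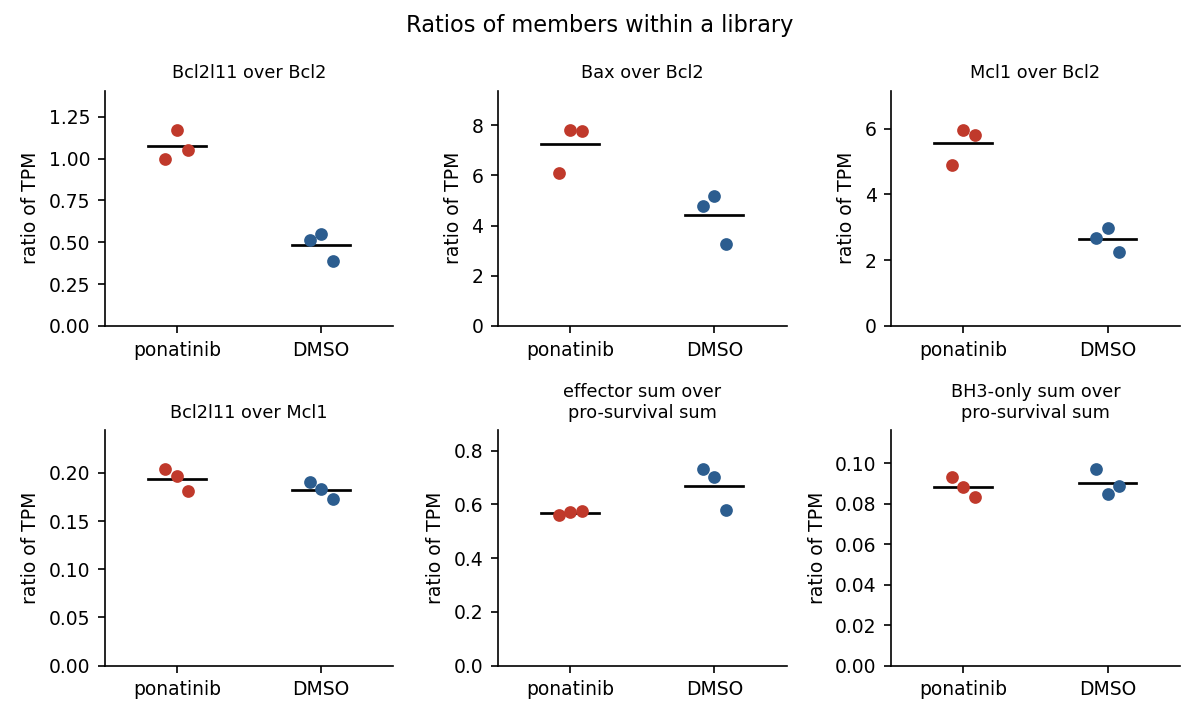
Ratios of TPM between members in each library, each axis from 0, ponatinib at left and DMSO at right; lines are group means. Ratios to Bcl2 are higher in every ponatinib library than in every DMSO library, while Bcl2l11 over Mcl1 and the BH3-only sum over the pro-survival sum overlap. Ratios to Bcl2 share its fall and are not independent.

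The table also had rows with transcript identifiers, which were kept apart from the gene rows. Such rows existed for 5 of 9 annotated transcripts of Bcl2l1, 3 of 6 of Bax, 2 of 4 of Bak1 and 2 of 4 of Bbc3, and for 0 of those of the other members. None of these belonged to the basic set of the annotation. For Bbc3 they held 24.9% of the gene's total, all of it in transcript Bbc3-202, which had 3.09, 3.15 and 1.78 TPM in ponatinib libraries, against 3.42, 5.40 and 5.21 TPM in DMSO libraries. Those groups did not overlap, unlike those of the Bbc3 gene row. Added to the gene row, they gave a log2 fold change of -0.18 (limma adjusted p = 0.158, with 0.158 to 0.975 over all alternatives), still short of the threshold. The Bak1 transcripts marked for nonsense-mediated decay were erratic: Bak1-204 was listed at 16.7 and 10.7 TPM in DMSO replicates 2 and 3 and at 0 in the other 4 libraries. With its transcript rows added, Bak1 stood at -0.05. For Bcl2l1 these rows summed to 10.1, 13.4 and 15.3 TPM in ponatinib libraries, against 10.8, 4.35 and 11.2 TPM in DMSO libraries, and the groups overlapped.

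Other BCL2 family genes were mostly low. Of 13 listed, 6 passed the filter, with 1 higher and 1 lower. The counts of this and the following lists are to be read against 23.9% of all rows tested called higher and 9.54% lower. Bid, whose protein links death receptors to mitochondria, had 19.6, 18.7 and 20.7 TPM in ponatinib libraries, against 15.4, 16.0 and 17.3 TPM in DMSO libraries. It was called higher (log2 fold change 0.26, SE 0.07, limma adjusted p = 0.0282), but not after scaling by medians of ratios (0.0622) nor without any 1 library other than DMSO replicate 3 (0.0584 to 0.109). Bcl2l2, which encodes the pro-survival BCL-W, had 1.73, 2.58 and 2.42 TPM in ponatinib libraries, against 3.06, 3.18 and 4.77 TPM in DMSO libraries. Its call as lower (-0.52, limma adjusted p = 0.0498) was at the threshold and was lost without any 1 library (0.0600 to 0.151) and with no filter (0.0964). The pseudocounts 0.1 and 5 ended that call too, at 0.0501 and 0.0536. Bad, a BH3-only gene, was at 17.6 to 22.2 TPM with ponatinib and 18.6 to 19.3 TPM with DMSO, and was not called. The BH3-only genes Bmf and Hrk, the effector-like Bok and the A1 copies Bcl2a1a and Bcl2a1c were under the filter.

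Downstream of the mitochondria, 1 of 5 genes of the apoptosome and caspases was higher and 0 lower. It was Cycs, which encodes cytochrome c (0.23, limma adjusted p = 0.0157), a call lost with medians of ratios (0.0776), without ponatinib replicates 1 and 3 (0.0523 and 0.0661) and without DMSO replicate 1 (0.0619). Casp9 and Apaf1, which build the apoptosome, were not called, at 2.51 and 9.78 TPM with ponatinib and 2.95 and 8.16 TPM with DMSO, though Apaf1 was called higher with DMSO replicate 3 left out (0.36, limma adjusted p = 0.0205). Casp2 was not called either, except as higher with DMSO replicate 3 left out (0.20, limma adjusted p = 0.0180). Casp6 was not called (-0.37, limma adjusted p = 0.0684), at 7.21 TPM with ponatinib and 9.74 TPM with DMSO. It was called lower with medians of ratios (limma adjusted p = 0.0182), with quantile normalization (0.0128) and without DMSO replicate 2 (0.0468).

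Inhibitors of apoptosis and their antagonists had 3 of 7 higher and 1 lower. Birc5, survivin, which also serves in mitosis, and Birc6 rose by 0.27 and 0.33 on the log2 scale (limma adjusted p = 0.00531 and 0.0101). Diablo, which encodes the antagonist SMAC, was called higher (0.20, limma adjusted p = 0.0308), but not with either other scaling (0.170 with medians of ratios, 0.0855 with quantile normalization) nor without any 1 library other than DMSO replicate 3 (0.0606 to 0.117). Htra2, the other mitochondrial antagonist, had 19.4, 23.6 and 26.7 TPM in ponatinib libraries, against 36.5, 31.02 and 36.7 TPM in DMSO libraries. It fell by 0.57 (limma adjusted p = 0.00960), and by 0.23 with its transcript rows added, where the call was lost (0.0599). Of 5 genes of the mitochondrial pore and release, Endog, a mitochondrial nuclease, was lower (-0.39, limma adjusted p = 0.00586), and Vdac2, the anchor of BAK, was at 248 to 287 TPM with ponatinib and 250 to 261 TPM with DMSO, not called. Vdac1 and Vdac3 were not called either (-0.17 and -0.08, limma adjusted p = 0.0625 and 0.293). Both were called lower with medians of ratios (limma adjusted p = 0.00517 and 0.0167) and with quantile normalization (0.0167 and 0.0427). Of 4 genes of MCL1 protein turnover, Fbxw7, a ubiquitin ligase subunit, rose by 0.50 (limma adjusted p = 0.00923), and the ligase Huwe1 and the deubiquitinase Usp9x were not called, although Usp9x was called higher with no filter (limma adjusted p = 0.0466).

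The death receptor arm had 4 of 9 members higher and 0 lower. Tnfrsf1b, a TNF receptor, had 48.9, 48.0 and 47.7 TPM in ponatinib libraries, against 35.6, 35.0 and 37.8 TPM in DMSO libraries (log2 fold change 0.41, limma adjusted p = 0.00170). Cflar, which encodes the caspase-8 inhibitor c-FLIP, was higher by 0.50 (limma adjusted p = 0.0209), and lost its call without any 1 library other than DMSO replicate 3 (0.0520 to 0.0752). Among the DMSO libraries it was highest in replicate 3 (27.2 TPM) and lower in replicates 1 and 2 (19.3 and 19.1 TPM). Tnfrsf1a and Tnfrsf10b were called as well (limma adjusted p = 0.0280 and 0.0337), and their calls too were lost without any 1 library other than DMSO replicate 3. Tnfrsf1a also lost its call with both other scalings, and Tnfrsf10b with no filter. Fas, Fasl, Fadd and Casp8, the core of Fas signalling, were not called.

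Genes known to set the levels of the family went both ways. Among 12 transcription factor genes 2 were higher and 3 lower. Rel and Rela, NF-kappaB subunits that are known to drive Bcl2a1 and Bcl2l1, were higher: Rel had 27.8, 29.6 and 28.6 TPM in ponatinib libraries, against 19.1, 18.5 and 24.5 TPM in DMSO libraries (log2 fold change 0.46, limma adjusted p = 0.0130). Without ponatinib replicate 2 the adjusted p of Rel was 0.0519. Rela had 58.3, 58.8 and 55.5 TPM in ponatinib libraries, against 45.7, 43.7 and 47.9 TPM in DMSO libraries (0.32, limma adjusted p = 0.00496). Nfkb1, a further subunit, was not called, at 198 TPM with ponatinib and 181 TPM with DMSO (0.15, limma adjusted p = 0.411). It was called higher with DMSO replicate 3 left out (0.31, limma adjusted p = 0.00269). Foxo1 and Foxo3, known regulators of Bcl2l11 and Bbc3, were not called, and neither was Trp53, at 178 to 185 TPM with ponatinib and 160 to 171 TPM with DMSO, except with DMSO replicate 3 left out (limma adjusted p = 0.0476).

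Ddit3, which encodes CHOP, a stress factor known to lower Bcl2 and raise Bcl2l11, had 10.9, 9.88 and 10.9 TPM in ponatinib libraries, against 35.3, 23.2 and 67.3 TPM in DMSO libraries. It fell by 1.76 on the log2 scale (limma adjusted p = 0.00531) and by 1.36 without DMSO replicate 3. Atf4, its activator, fell by 1.18 (limma adjusted p = 0.00155). DMSO replicate 3 had the highest Ddit3 level and also the highest Bcl2 level of the 6 libraries. That is a single library, which stood apart on the second principal component. A link of Ddit3 to Bcl2 or Bcl2l11 was not tested. Myc was lower as well (-0.48, limma adjusted p = 0.0251), a call lost without any 1 ponatinib library (0.0629 to 0.0879) and with no filter (0.0618).

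Of 8 receptor genes 2 were higher and 2 lower, and the median log2 fold change of the list was -0.33. Il2rb, Tnfrsf9 and Cd28 were not called, though their groups were apart with ponatinib lower. Their log2 fold changes were -0.32, -0.34 and -0.12 (limma adjusted p = 0.0803, 0.0729 and 0.106). They were called lower with medians of ratios (limma adjusted p = 0.0166, 0.0152 and 0.0245) and with quantile normalization (0.0439, 0.0293 and 0.0247). Il7r encodes the receptor of the cytokine known to sustain BCL2. It had 51.4, 28.8 and 30.9 TPM in ponatinib libraries, against 7.13, 6.29 and 17.2 TPM in DMSO libraries. Il7r was higher by 1.85 on the log2 scale (limma adjusted p = 0.00678). Bcl2 itself was lower, and a link between Il7r and Bcl2 was not tested. Il2rg, the chain shared by IL-2 and IL-7 receptors, rose to 503 ± 22.1 TPM in ponatinib libraries, against 354 ± 20.3 TPM in DMSO libraries (SD, n = 3 each; limma adjusted p = 9.02e-04). Tnfrsf4, encoding the costimulatory receptor OX40, known to support BCL2 and BCL-XL, fell by 1.53 (limma adjusted p = 1.36e-04). Il2ra was called lower (-0.45, limma adjusted p = 0.0306), and lost its call without any 1 ponatinib library, without DMSO replicate 1 and with no filter (0.0503 to 0.107). Over all 8 lists 14 of 56 tested genes were higher and 8 lower. The counts were 8 and 5 without any 1 ponatinib library, 8 and 6 without DMSO replicate 1, 9 and 8 without DMSO replicate 2, 21 and 8 without DMSO replicate 3, 14 and 5 with no filter, and 10 and 14 with medians of ratios. The 56 genes had a median log2 fold change of 0.08, against 0.09 over all rows. Their 14 higher and 8 lower are to be read against 23.9% higher and 9.54% lower over all rows tested.

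**Figure D5:**
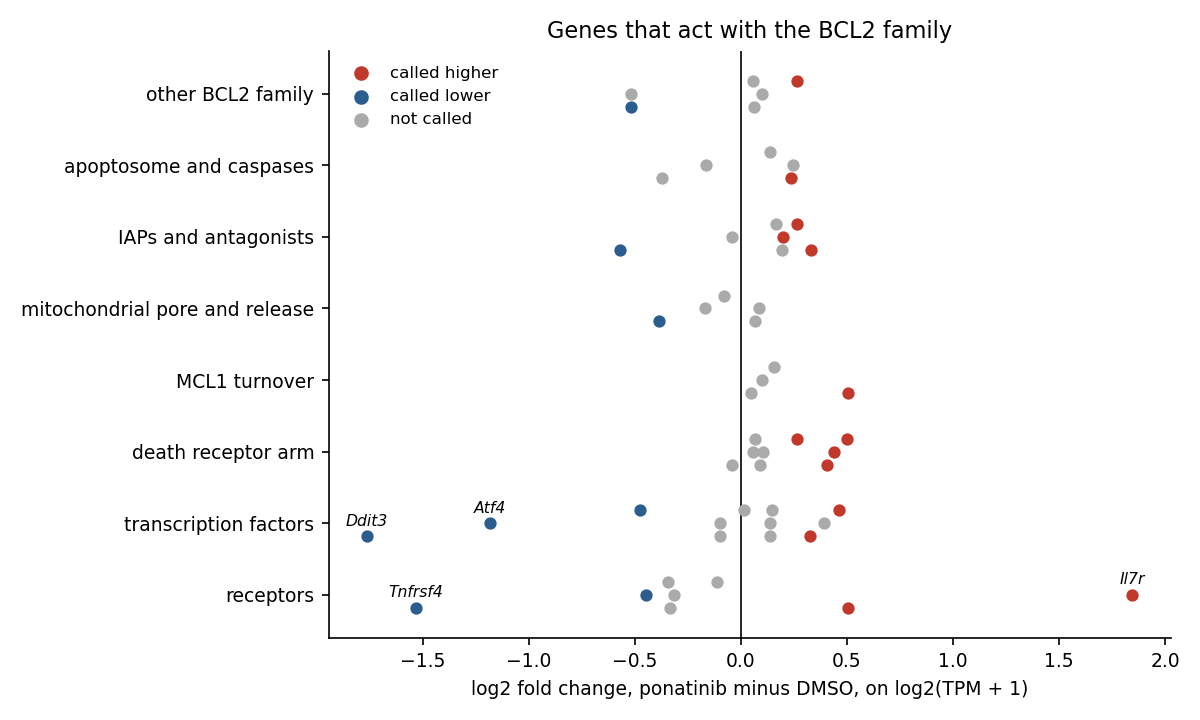
Log2 fold change (ponatinib minus DMSO, on log2(TPM + 1)) of the 56 tested genes of 8 lists that act with the BCL2 family, 1 dot per gene, stacked by list; names are given beyond 0.75 in either direction. Il7r lies farthest right, and Ddit3, Tnfrsf4 and Atf4 farthest left.

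For the signal with the largest called change in each direction among the 9, the genes with the most similar pattern over the 6 libraries were looked up among 6465 rows of at least 10 TPM, by Pearson correlation of log2(TPM + 1). All points share the contrast between the groups, which sets most of such a correlation. Closest to Bcl2l11 were Taf1c (r = 0.998), Rcsd1 (r = 0.997), Cst7 (r = 0.996), Slfn2 (r = 0.995) and Trim24 (r = 0.994), all called higher. Among the 5 closest to Bcl2 were Trim30a, Inpp5b, Cd53 and Arpc1b, with r of 0.994 to 0.995. As with Bcl2, each of these 4 had its highest level in DMSO replicate 3, with Trim30a at 101 TPM there and at 45.1 and 43.1 TPM in the other DMSO libraries.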

How the data were processed

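RNA-seq libraries of 3 ponatinib and 3 DMSO samples were grouped by their titles. The authors deposited a table whose columns each add up to 1000000, so its values were treated as TPM. Named in the submitters' processing notes, with no roles, are GRCm38, Salmon 1.5.1, fastp 0.19.5 and DESeq2 1.22.1; no source used here says how transcripts were summed to genes. TPM keep no depth, so read numbers are unknown, and the spread between replicates sets the precision (median SE of a log2 fold change 0.09).

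Of 43072 rows, 22095 had gene and 20977 transcript identifiers. Gene rows were used, named from GENCODE mouse release 21. Only 11 identifiers carried that release's version, so the authors' annotation was another. Bcl2a1b and Bcl2a1d were summed. Rows with a mean of at least 1 TPM were tested, as log2(TPM + 1), which understates changes of low genes, with limma 3.58.1 (trended empirical Bayes, two-sided, Benjamini-Hochberg) in R 4.3.3, after a test on simulated data. Members and lists were chosen with earlier results of these data known. Named are all members, known regulators of members, and the 5 genes most like a member. The plan was to name up to 4 genes per list by smallest p, which was not kept in every list. Further list genes were named after their values were seen. A gene among those most like a member, and 2 list genes, which are left out of the list counts, are not reported here. Alternatives covered filter, pseudocount, scaling, transcript rows, robust moderation, the replicate block and leaving out each library. The upstream stretches of the A1 copies were trimmed to aligned bases outside the annotated gene in all 3 copies compared.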

Additional observations from a re-analysis of the deposited data

How the results depend on the processing

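The members stayed at 4 higher and 1 lower under 12 of 16 alternatives, the exceptions being the 4 left-out libraries that ended the Bcl2l1 call, with 3 higher and 1 lower. Leaving out 1 library, member counts were 3 to 4 higher and 1 lower. Among all rows, medians of ratios gave 1476 higher and 1571 lower and quantile normalization 1447 lower; leaving out 1 library gave 1346 to 3533 higher and 626 to 1011 lower. Of the genes acting with the family, medians of ratios and quantile normalization each gave 14 lower, no filter gave 5 lower, and leaving out 1 library gave 8 to 21 higher and 5 to 8 lower; 0 calls changed direction. Gene by gene, 138 of 142 alternative results for members kept the call or lack of one and 4 lost it; for the other genes 803 of 885 kept it, 55 lost and 26 gained it, and 1 uncalled value, Bcl2l13 with transcript rows added, moved across 0. Same-numbered libraries of the 2 groups did not deviate together (correlations of -0.04, 0.06 and 0.01), so the numbers were not taken as pairs. With the replicate block the members were again 4 higher and 1 lower, all rows 2299 higher and 922 lower, and the genes acting with the family 15 higher and 11 lower. TPM keep no depth, so what depth limits cannot be given.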
